A study of Mus musculus with 22 samples.

Results

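Inhibitory interneurons of the hippocampus were compared with 3 types of excitatory neuron, the dentate gyrus granule cells of the hippocampus, the layer V cortical neurons and the granule cells of the cerebellum. The libraries were chosen by their labels, and the interneurons account for 3 of the 22 libraries of the series, or 3 of its 18 biological replicates over 6 cell types. Each library holds messenger RNA that came down with tagged ribosomes (RiboTag), so the values describe ribosome-bound mRNA and not total RNA. The study asked how the tRNA supply and the mRNA of brain cell types compare, and these libraries give its mRNA side. All mice were 6 weeks old and carried 1 floxed RiboTag allele (Rpl22 Fl/+), which makes the ribosomal protein RPL22 carry an HA tag once Cre is present. The Cre lines differed between cell types, in the spelling of the labels: Dlx6a-cre with hippocampus for interneurons, Rbp4-cre with hippocampus for dentate gyrus granule cells, Rbp4-cre with cortex for layer V neurons and Gabra6-cre with cerebellum for cerebellar granule cells. A library therefore holds whatever cells the driver recombined in that tissue, and cell type, driver line and, for layer V and cerebellar granule cells, brain region change together. Each interneuron library pooled 2 mice, a male and a female for replicates 1 and 2 and males alone for replicate 3. All 3 interneuron libraries were sequenced in batch 2, and the 9 excitatory libraries compared with them, 3 per type, in batch 1, so batch goes with cell type and the effects cannot be told apart in this comparison. For each excitatory type, 1 replicate was also sequenced in batch 2, and these 3 libraries give a comparison within a batch.

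Inhibitory interneurons release GABA, which they make from glutamate with the decarboxylases GAD67 (Gad1) and GAD65 (Gad2) and load into vesicles with the transporter encoded by Slc32a1. In the forebrain they arise from the ganglionic eminences, where the Dlx homeodomain factors act early and where Lhx6 and Nkx2-1 mark cells of medial origin and Sp8, Nr2f2 and Prox1 many cells of caudal origin. Mature classes are told apart by parvalbumin, somatostatin, neuropeptide Y, vasoactive intestinal peptide, cholecystokinin and other products, whereas the excitatory types load glutamate through VGLUT1 (Slc17a7) and use factors such as Neurod1 and Neurod2.

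Between 38270477 and 66185898 estimated counts per library lay behind the 12 libraries compared, and between 45944013 and 59763961 behind the interneuron libraries. The interneuron libraries correlated with one another at r = 0.9919 to 0.9960 across 9593 genes, which are not independent replicates. The 3 excitatory replicates sequenced in both batches correlated between their batches at r = 0.9986 to 0.9994 across 8985 genes. These genes averaged over 10 CPM (counts scaled to library size), and at most 0.178% of them differed by 2-fold or more. Genes with fewer counts were left out of both values. In cerebellar granule cells, C1qb shifted by log2 2.49 and Adora2a by -1.55 (batch 2 minus batch 1). Of the 20 libraries labelled with a single sex, 1 went against its label by its sex-linked transcripts, the batch 2 library of layer V replicate 1, and it entered only the checks within batch 2 and between batches. The p-values below come from the 12 libraries compared and measure the spread between biological replicates of 3 per type. An interneuron replicate is a pool of 2 mice, while no pooling is given for the excitatory types.

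The 4 genes that define the interneurons, Gad1, Gad2, Dlx5 and Dlx6, were each higher in these libraries than in every excitatory type, as their label says. Gad1 stood at 1978, 2084 and 2025 TPM (transcript abundance scaled to the library total and to transcript length) in the 3 interneuron libraries. In the dentate gyrus granule cell libraries it stood at 146, 160 and 143 TPM, in layer V neurons at 16.4, 14.0 and 14.2 TPM and in cerebellar granule cells at 4.82, 4.70 and 5.89 TPM. Every interneuron library was above every excitatory library, and dentate gyrus granule cells came next in order. By edgeR's quasi-likelihood test the log2 difference from the mean of the 3 excitatory types was 6.44 (SE 0.05, adjusted p = 1.3e-16), made up of 3.8 against dentate gyrus granule cells, 6.80 against layer V neurons and 8.71 against cerebellar granule cells. Gad2 reached 551, 603 and 555 TPM in interneurons and no more than 6.95 TPM in any of the 9 excitatory libraries, a log2 difference of 7.31 (SE 0.10, adjusted p = 3.8e-15). Dentate gyrus granule cells, second for Gad1, held 4.73 ± 1.15 TPM of Gad2 (SD, n = 3), below the 6.65 ± 0.258 TPM of layer V neurons.

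Dlx5 and Dlx6 are neighbouring homeobox genes on chromosome 6 of GRCm38 (Dlx5 from 6877805 to 6882085 on the minus strand, Dlx6 from 6863334 to 6868568 on the plus strand). Dlx5 stood at 91.2, 104 and 102 TPM in interneurons, at 0.367 to 0.668 TPM in dentate gyrus granule cells, at 1.11 to 1.29 TPM in layer V neurons and at 0 in all 3 cerebellar granule cell libraries. The groups did not overlap, and interneurons were above dentate gyrus granule cells by a log2 difference of 7.53 and above layer V neurons by 6.06. Against cerebellar granule cells Dlx5 was at least 990-fold higher, taking a floor of 3 counts per library for the type without counts. Dlx6 stood at 114, 106 and 109 TPM in interneurons and at no more than 2.84 TPM in the excitatory libraries, a log2 difference from their mean of 6.41 (SE 0.13, adjusted p = 1.2e-13). Dlx6 lies within the antisense gene Dlx6os1, and since the kit was stranded but the strand setting of the quantification is not given in the sources used here, reads of the pair may have been shared. Within batch 2 the log2 differences from the mean were 6.42 for Gad1, 7.19 for Gad2 and 6.58 for Dlx6, and Dlx5 stood at 0.979, 1.26 and 0 TPM in the batch 2 libraries of the same 3 excitatory types. In such libraries fewer cells of a type and less RNA per cell cannot be told apart, which holds for every level given here.

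**Figure D1:**
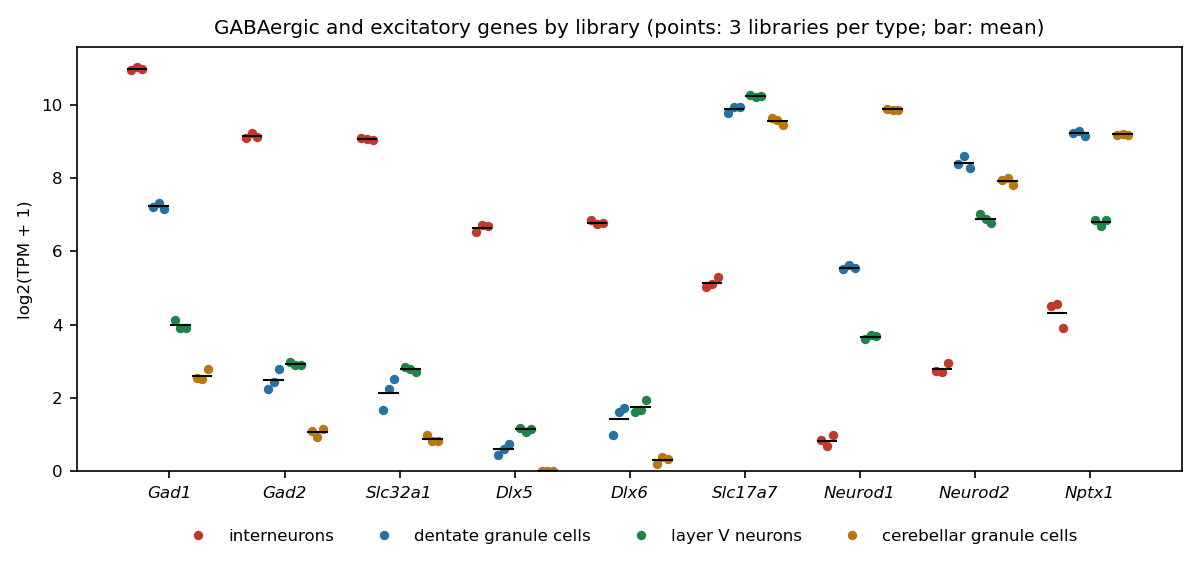
Levels of 5 GABAergic and 4 excitatory genes as log2(TPM + 1) on the vertical axis, with a point for each of 3 libraries per cell type and a bar for their mean. For Gad1, Gad2, Slc32a1, Dlx5 and Dlx6 the interneuron points lie above every excitatory point, and for Slc17a7, Neurod1, Neurod2 and Nptx1 below every one.

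Across the 18587 genes tested, a gene was called where its Benjamini-Hochberg adjusted p was at most 0.05 and its difference at least 2-fold. Against each of the 3 excitatory types, 1128 genes (6.07% of those tested) were called higher in interneurons all 3 times and 278 genes (1.5%) lower all 3 times. Against the mean of the 3 types, 3450 genes (18.6%) were higher and 1292 (6.95%) lower. Taken type by type, 3104 genes (16.7%) were higher and 2462 (13.2%) lower than in dentate gyrus granule cells, 2625 (14.1%) higher and 2308 (12.4%) lower than in layer V neurons, and 5589 (30.1%) higher and 2987 (16.1%) lower than in cerebellar granule cells. These 3 comparisons share the interneuron libraries. The shares of all genes tested given here are the background for every count of list members below. A call against the mean did not always hold for each type: of the 3450 genes higher than the mean, 793 were higher against cerebellar granule cells alone and 399 were called lower against 1 of the types. The genes called against each type are therefore given first below, and 1113 of the 1128 had all 3 interneuron libraries above all 9 excitatory ones, against 2834 (15.2%) of all genes tested. A call already asks for a 2-fold difference from each type in these same libraries, so this share follows largely from the call. Of the 1128 genes, 959 were protein coding, 422 reached 10 TPM in interneurons, and 413 had a higher mean level in the astrocyte or the microglia libraries than in interneurons.

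**Figure D2:**
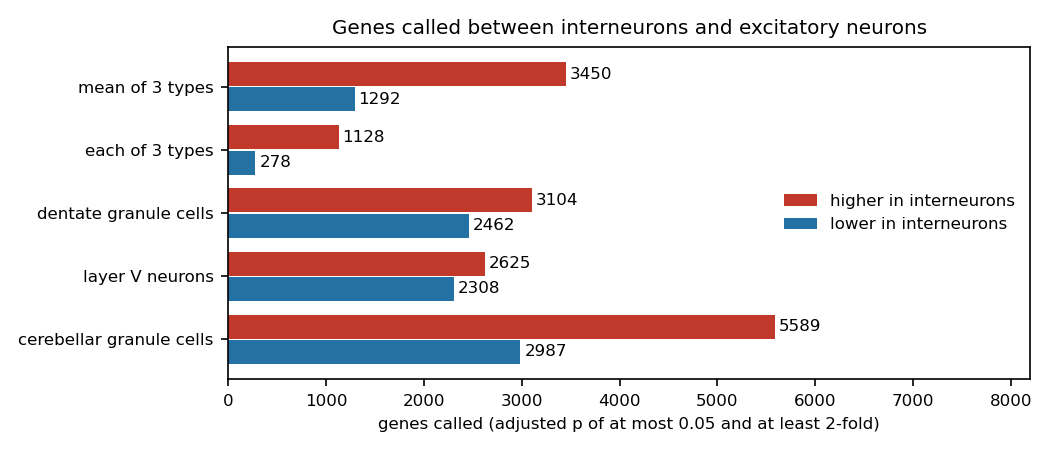
Number of genes called higher (red) and lower (blue) in interneurons, at an adjusted p of at most 0.05 and at least 2-fold, against the mean of 3 excitatory types, against each of the 3 at once and against each type alone. The longest bar is the 5589 genes higher than in cerebellar granule cells, and 1128 genes were higher against all 3 types.

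Genes for making, packing and clearing GABA were higher in interneurons almost throughout. Of the 10 genes on this list 7 were higher than in each excitatory type and none lower, with a median log2 difference from the mean of 3.08 against 0.08 for all genes tested. The vesicular GABA transporter Slc32a1 stood at 546, 533 and 527 TPM in interneurons and at 0.762 to 6.25 TPM in the excitatory libraries, a log2 difference of 7.54 (SE 0.12, adjusted p = 9.3e-15). All 3 interneuron libraries were above all 9 excitatory ones. The enzymes that break GABA down were higher as well: GABA transaminase (Abat) was at 437, 442 and 435 TPM against 30.4 to 40.4 TPM in the excitatory means (log2 difference 3.45), and succinate semialdehyde dehydrogenase (Aldh5a1) was higher by 2.00. Slc6a11, the GABA transporter of astrocytes, was also higher than in each type (log2 difference 2.71) but at 19.4 to 25.5 TPM, below the 545 TPM of the astrocyte libraries. The glutamine carrier Slc38a1 was higher than in dentate gyrus granule cells and layer V neurons and not called against cerebellar granule cells (log2 difference 0.39), and Slc6a13 and Slc38a3 were called against neither the mean nor all types. Summed over the list, interneuron libraries held 4725 to 4918 TPM and dentate gyrus granule cells 303 to 326 TPM.

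Transcription factors of the interneuron lineage had the largest median of all 26 lists. Of 24 factors, 15 were higher than in each excitatory type and 1 was lower, with a median log2 difference from the mean of 6.60 (6.32 with the 5 genes at 0 in a type set at their bound). Dlx2 stood at 54.9, 55.6 and 53.7 TPM and Dlx6os1, the long noncoding RNA antisense to Dlx6, at 85.5, 93.5 and 85.1 TPM. Neither had a count in the cerebellar granule cell libraries of batch 1, so that they were at least 1180-fold and at least 2059-fold higher there. Against layer V neurons, where both were measured, the log2 differences were 6.22 for Dlx2 and 6.67 for Dlx6os1.

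Factors of both developmental origins were present at the same time. For the medial ganglionic eminence, Lhx6 reached 150, 158 and 162 TPM (log2 difference 8.20), Sox6 12.0, 13.8 and 14.9 TPM (5.57), and Nkx2-1 4.81, 6.89 and 5.84 TPM (7.03). For the caudal eminence, Sp8 reached 11.7, 10 and 8.10 TPM (log2 difference 8.28) and Npas1, which marks part of the lineage, 99.4, 93.6 and 110 TPM (8.02). Nr2f2 was called against dentate gyrus granule cells and cerebellar granule cells but not layer V neurons (log2 difference 0.82), and Nr2f1 against none of the types. Prox1, which dentate gyrus granule cells also need, stood at 12.1 to 15.1 TPM in interneurons, below the 167 ± 13.5 TPM of dentate gyrus granule cells and above the 0.451 ± 0.141 TPM of layer V neurons. Etv1 was the factor lower than in each type, at 9.91, 9.91 and 8.82 TPM against 41.0, 82.5 and 728 TPM in the excitatory means (log2 difference -4.13). It is on the list as a factor of some interneuron subtypes and is also a layer V and cerebellar granule cell gene.

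Promoters of these genes were read to set sequence beside expression. The 250 bases before each RefSeq start (GRCm38.p6) were searched on both strands for TAATTA, a core bound by many homeodomain proteins, TGACGTCA, the cAMP response element, and CAGATG, an E-box of the kind neuronal bHLH factors bind. Promoters were found for 12989 of 18561 symbols tested and gave 16567 windows. TAATTA occurred in 3.02% of all windows, in 4.5% of 1044 windows of the genes higher than each type, in 2.3% of 261 windows of the genes lower, in 3 of 39 windows of the transcription factors and in 4 of 27 windows of the subclass genes. CAGATG occurred in 11% of all windows, in 14% of those of the higher and in 17.6% of those of the lower genes, and TGACGTCA in 2.34%, 1.44% and 1.15%. A match describes the letters and is not a bound site. The stretches of 30 bases around each TAATTA or TGACGTCA in the GABA, transcription factor and subclass lists are shown, with the motif in capitals. Each is read 5′ to 3′ on the gene's strand. They were chosen because all 7 genes that carry them were higher than in each excitatory type. Most genes of these 3 lists were called so with or without a motif, at 7 of 10, 15 of 24 and 18 of 26. Whether the motifs go with higher expression was not tested.
Dlx6os1 (chr6:6869646-6869675, minus strand): gaaaattacaggTAATTAtctttgacggta
Dlx6os1 (chr6:6869590-6869619, minus strand): gaaaaattactcTAATTAtggctgcattta
Dlx6os1 (chr6:6861840-6861869, minus strand): taaattatcctcTAATTAtacaccagtgtc
Sp8 (chr12:118847359-118847388, plus strand): ctcttgctggttTAATTAgtttccttttat
Cort (chr4:149126831-149126860, minus strand): gtcccgagtcttTAATTAaggggctaaatc
Adarb2 (chr13:8202803-8202832, plus strand): tgtgattggatcTAATTAgactttgcggca
Slc17a8 (chr10:89599939-89599968, minus strand): ttgtaaacagagTAATTAtttgagagtctg
Tac1 (chr6:7554949-7554978, plus strand): cgagggggcggcTAATTAaatattgagcag
Sst (chr16:23890874-23890903, minus strand): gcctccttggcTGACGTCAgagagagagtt
The element of Sst begins 48 bases before its start, and the TAATTA of Cort, which encodes the related peptide cortistatin, 85 bases before. The first 2 stretches of Dlx6os1 and those of Tac1 and Sst overlap annotated exons. The promoter of Slc32a1 (chr2:158610508-158610757, plus strand) is shown because the gene belongs to every GABA-releasing neuron and the window lies outside annotated exons, and it held none of the 3 motifs.
Slc32a1: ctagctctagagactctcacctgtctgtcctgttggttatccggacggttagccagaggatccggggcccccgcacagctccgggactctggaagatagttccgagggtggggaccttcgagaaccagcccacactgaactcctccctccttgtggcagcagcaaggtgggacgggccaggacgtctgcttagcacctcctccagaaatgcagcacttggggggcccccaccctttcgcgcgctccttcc

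Products that tell interneuron classes apart were present from several classes at once. Of 26 subclass genes 18 were higher than in each excitatory type and none lower, with a median log2 difference from the mean of 6.17. Somatostatin (Sst) was the most abundant of the list per length, at 5142, 4912 and 5849 TPM in interneurons. Its levels were 45.3 to 134 TPM in dentate gyrus granule cells, 232 to 275 TPM in layer V neurons and 0.145 to 0.38 TPM in cerebellar granule cells, so the groups did not overlap, and the log2 difference from the mean was 7.98 (SE 0.22, adjusted p = 1.9e-12). Neuropeptide Y (Npy) followed at 1738, 1754 and 1959 TPM (log2 difference 7.67). Parvalbumin (Pvalb), the calcium buffer of fast-spiking cells, stood at 602, 582 and 645 TPM and had its next highest level in layer V neurons at 40.5 ± 4.24 TPM (log2 difference 3.60 against that type).

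Genes of the vasoactive intestinal peptide and serotonin receptor classes were among those with the largest differences. Vip stood at 348, 305 and 388 TPM against at most 3.84 TPM in an excitatory library (log2 difference 9.09, SE 0.11, adjusted p = 1.7e-15). The serotonin receptor channel Htr3a was at 113 TPM in all 3 interneuron libraries and at most 0.397 TPM elsewhere among the 9 (log2 difference 9.76, SE 0.09, adjusted p = 4.6e-16). Tac2, which encodes neurokinin B, stood at 92.5, 94.2 and 113 TPM, and Crhbp, the binding protein of corticotropin-releasing hormone, at 188, 180 and 203 TPM. Neither was counted in cerebellar granule cells, where the differences were at least 418-fold and at least 2362-fold, and against layer V neurons their log2 differences were 5.14 and 5.63. Further subclass genes were mixed. Ndnf (38.3 to 44.7 TPM, log2 difference 6.90) and Sncg (60.4 to 63.5 TPM, 7.98) were higher than in each type. Lamp5 stood at 189, 209 and 195 TPM, below the 327 ± 9.41 TPM of layer V neurons. Reelin (Reln, 139 to 160 TPM) and calretinin (Calb2, 99.2 to 121 TPM) were higher than in both forebrain types and lower than in cerebellar granule cells, where they stood at 393 ± 19.9 and 1946 ± 32.5 TPM. Cholecystokinin (Cck) stood at 1221, 1227 and 1291 TPM, against 842 ± 202 TPM in dentate gyrus granule cells and 2490 ± 141 TPM in layer V neurons. It was lower than in layer V neurons (log2 difference -1.26) and not called against dentate gyrus granule cells (0.57). Nos1 was called against layer V neurons alone.

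**Figure D3:**
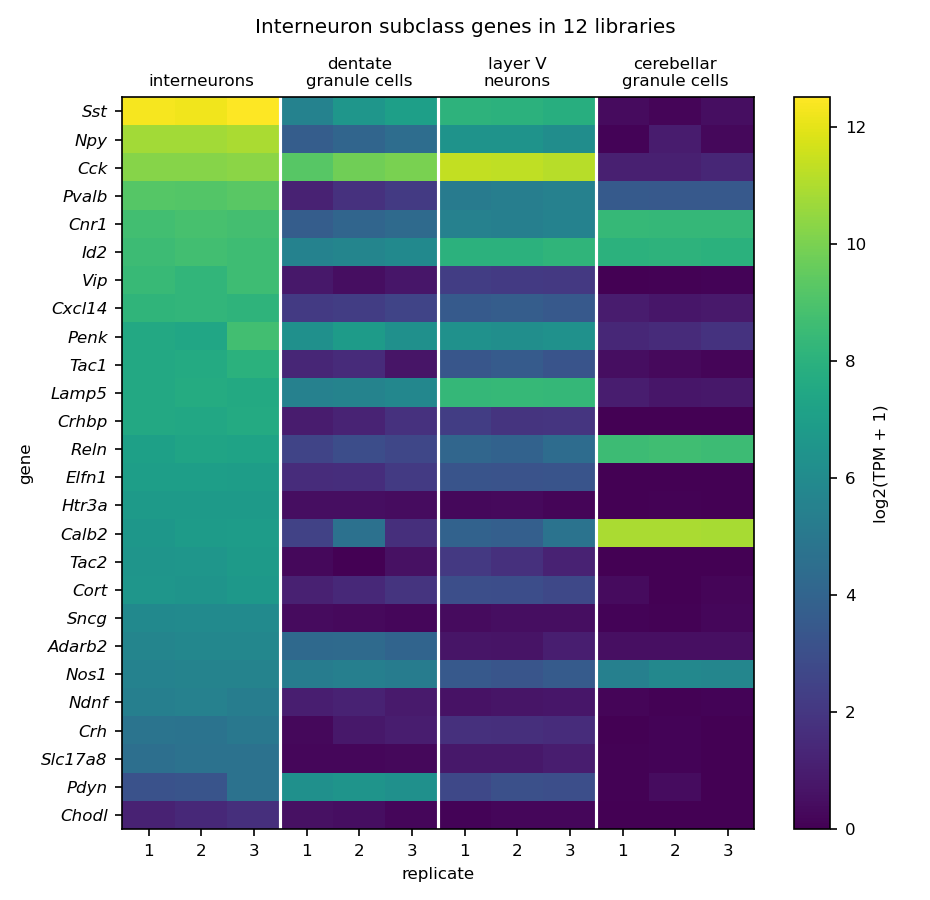
Heat map of log2(TPM + 1) of 26 interneuron subclass genes (rows, by mean level in interneurons) in 3 libraries each of interneurons and 3 excitatory types (columns). Sst at 4912 to 5849 TPM is the brightest row in interneurons, while Cck and Lamp5 are brighter in layer V neurons and Calb2 and Reln in cerebellar granule cells.

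Genes of excitatory identity were mostly lower in interneurons than in both forebrain types, though not all were at the floor. Against cerebellar granule cells they were split. Of 18 genes 6 were lower than in each excitatory type and none higher, with a median log2 difference from the mean of -2.18. By type, 16 were lower than in dentate gyrus granule cells and 15 lower than in layer V neurons, with none higher than in either. Against cerebellar granule cells 9 were higher and 7 lower. VGLUT1 (Slc17a7) stood at 31.5, 33.8 and 38.7 TPM in interneurons against 872 to 989, 1183 to 1238 and 699 to 795 TPM in dentate gyrus granule cells, layer V neurons and cerebellar granule cells. No interneuron library came near an excitatory one, and the log2 difference was -4.94 (SE 0.06, adjusted p = 1.7e-15). Neurod1 (0.627 to 0.975 TPM, log2 difference -6.83), Neurod2 (5.57 to 6.75 TPM, -5.31) and the second vesicular glutamate transporter Slc17a6 (0.115 to 0.441 TPM, -4.45) were lower as well. Nptx1, which clusters AMPA receptors, was lower by -4.25 and Baiap2, a postsynaptic scaffold, by -2.66. The other 12 genes were not lower than in each type. Camk2a, the kinase of excitatory synapses in the forebrain, was at 481, 455 and 347 TPM, lower than in dentate gyrus granule cells (3015 ± 171 TPM, log2 difference -2.93) and layer V neurons (1422 ± 23.8 TPM, -2.11), yet it was called higher than the mean (1.21), with cerebellar granule cells at 0.940 ± 0.0821 TPM. Bcl11b (log2 difference 1.35) and Emx2 (1.02) were called higher than the mean in the same way and lower than in dentate gyrus granule cells. Tbr1, a cortical factor, was lower than in both forebrain types and not called against cerebellar granule cells.

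Receptors for GABA differed less than the genes for releasing it. Of 18 genes for GABA-A and GABA-B receptors and their anchors, 3 were higher than in each type and none lower, with a median log2 difference of 0.50. The 3 were the gamma subunits Gabrg3 (27.4, 29.4 and 28.0 TPM, log2 difference 5.24) and Gabrg1 (17.1, 20.9 and 13.8 TPM, 3.94) and the epsilon subunit Gabre, which stood at 0.849 to 1.48 TPM (1.74). Gabra5 was lower than in dentate gyrus granule cells (log2 difference -2.49) and layer V neurons (-1.13), and Gabra6, the driver gene of the cerebellar line, stood at 3895 ± 23.2 TPM in cerebellar granule cells and under 0.1 TPM in interneurons.

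Ionotropic glutamate receptors and their partners had a median log2 difference of 1.56 from the mean. By type the median was 0.05 against dentate gyrus granule cells, 0.53 against layer V neurons and 4.23 against cerebellar granule cells. Of the 22 genes 4 were higher than in each type and none lower. They were the kainate receptor subunit Grik1 (74.9, 74.7 and 75.9 TPM against at most 3.12 TPM, log2 difference 5.41, SE 0.06, adjusted p = 1.0e-15), the NMDA receptor subunits Grin2d (52.9, 53.5 and 52.3 TPM, 5.55) and Grin3a (33.3 to 37.4 TPM, 3.68), and the kainate receptor partner Neto1 (84.7 to 103 TPM, 4.38). The shared NMDA receptor subunit Grin1 was at 276 to 281 TPM in interneurons, and its log2 differences from the 3 types lay between -0.15 and 0.06. The AMPA receptor subunits went separate ways: Gria2, the subunit that keeps calcium out, was lower than in dentate gyrus granule cells (log2 difference -1.70) and layer V neurons (-1.21), and Gria4 was higher than in both (3.78 and 1.76). Gria1, at 615 to 694 TPM, was higher than in layer V neurons (2.54) and cerebellar granule cells (7.27) and not called against dentate gyrus granule cells (0.11).

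Of 34 receptors for serotonin, acetylcholine, opioids, peptides and other modulators, 10 were higher than in each type and 1 was lower. Beside Htr3a, the largest differences among them were those of the substance P receptor Tacr1 (7.26, 9.30 and 8.10 TPM, log2 difference 4.86), the oxytocin receptor Oxtr (13.0, 15.3 and 15 TPM, 4.77) and the delta opioid receptor Oprd1 (38.0, 35.2 and 36.8 TPM, 4.50). The muscarinic receptor Chrm2 (3.97), the mu opioid receptor Oprm1 (3.54), the dopamine receptor Drd2 (3.71), the adrenergic receptor Adra1a (3.89), Htr2c (3.19) and the nicotinic subunit Chrna5 (3.81) complete the 10. Oprm1 was low in level, at 3.85 to 4.74 TPM. The cannabinoid receptor Cnr1, carried by cholecystokinin cells, stood at 422, 472 and 439 TPM, higher than in dentate gyrus granule cells (log2 difference 4.81) and layer V neurons (3.07) and not called against cerebellar granule cells at 322 ± 5.23 TPM (0.39). The corticotropin-releasing hormone receptor Crhr1 was lower than in each type, at 2.66, 2.69 and 1.75 TPM (log2 difference -3.31).

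Channels of fast-spiking cells and axons were split. Of 31 genes 6 were higher than in each type and none lower, with a median log2 difference of 0.90. The potassium channel subunit Kcnc2 stood at 239, 251 and 279 TPM against 3.73 to 7.57 TPM in dentate gyrus granule cells, 20.1 to 21.1 TPM in layer V neurons and at most 0.114 TPM in cerebellar granule cells (log2 difference 6.87, SE 0.13, adjusted p = 5.6e-14). Kcnmb2, an accessory subunit of calcium-activated potassium channels (33.5 to 36.4 TPM, 5.95), the silent subunit Kcns3 (41.0 to 42.4 TPM, 5.83) and the interacting protein Kcnip1 (134 to 141 TPM, 4.52) were the next largest, and the subunit Kcnab3 (119 to 129 TPM, 2.46) was among the 6 too. Kcnc1, the partner of Kcnc2, was at 401 to 407 TPM, higher than in both forebrain types and at 658 ± 11.4 TPM in cerebellar granule cells (log2 difference -0.71). The sodium channel Scn1a was higher than in dentate gyrus granule cells (3.18) and layer V neurons (1.28) and not called against cerebellar granule cells (0.09). Scn8a lay between -0.30 and -0.16 against the 3 types on the log2 scale.

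Synapse organisers and matrix genes held some of the clearest single differences. Of 25 organisers 4 were higher than in each type and 1 was lower. Nxph1, a secreted neurexin ligand, stood at 211, 223 and 229 TPM against at most 4.71 TPM in an excitatory mean (log2 difference 6.98), and the neuregulin receptor Erbb4 at 70.3, 92.0 and 79.8 TPM (5.01). Nxph2 had no counts in cerebellar granule cells, where it was at least 260-fold higher, and differed from layer V neurons by 3.90, while Lgi2 was higher by 2.84 and Nxph4 lower by -2.48. Of 13 perineuronal net and matrix genes 8 were higher than in each type and none lower, with a median of 2.45. The link protein Hapln1 stood at 111, 131 and 115 TPM and at most 1.53 TPM in the excitatory libraries (log2 difference 8.08, SE 0.11, adjusted p = 2.9e-15), and the proteases Adamts8 (4.58) and Adamts15 (3.74) and the inhibitor Timp3 (3.47) came next. Aggrecan (Acan), the core protein of nets, was at 2.11 to 2.17 TPM, higher than in layer V neurons (3.65) and cerebellar granule cells (7.45) and just short of 2-fold against dentate gyrus granule cells (0.93). Glia express several of these matrix genes too. Brevican (Bcan) was at 48.8 to 54.3 TPM in interneurons and 1222 TPM in astrocytes, and the part of glial RNA in these values was not tested.

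Calcium-binding proteins other than parvalbumin showed no common direction: 2 of 14 tested were higher than in each type, Pvalb and Necab2 (154 to 179 TPM, log2 difference 4.38), and 2 lower, the calcineurin subunit Ppp3ca (406 to 426 TPM, -2.21) and Hpcal1 (-2.13). The chloride cotransporters, which set the effect of GABA on a cell, were called in neither direction for any of 5 genes against the mean but differed from single types. Of the 5, 3 were higher than in layer V neurons, Slc12a2 (NKCC1, log2 difference 1.82), Slc12a4 (1.36) and Slc12a7 (1.30). Slc12a2, at 16.7 to 19.7 TPM, was also higher than in dentate gyrus granule cells (1.35) and lower than in cerebellar granule cells (-1.42). Slc12a4 (1.96) and Slc12a7 (3.43) were higher than in cerebellar granule cells, and Slc12a7 was lower than in dentate gyrus granule cells (-2.75). KCC2 (Slc12a5) stood at 212, 214 and 212 TPM with log2 differences of -0.34 to 0.01 from the 3 types. Of 21 migration and trophic receptor genes 6 were higher than in each type and 1 was lower. Insulin-like growth factor 1 (Igf1) stood at 24.3, 28.6 and 26.9 TPM against at most 0.462 TPM in an excitatory mean (log2 difference 6.67), and the chemokine receptor Cxcr4, used by migrating interneurons, at 14.0, 13.9 and 12.7 TPM (6.41). Kit (3.52) and Ret (3.36) were the next largest of those higher than in each type. Brain-derived neurotrophic factor (Bdnf) was the gene lower than in each type, at 0.842, 1.19 and 0.928 TPM against 40.9 to 45.6, 26.3 to 29.1 and 21.8 to 23.0 TPM (log2 difference -5.11, SE 0.08, adjusted p = 6.8e-15). Its receptor gene Ntrk2 was at 154 to 167 TPM, above all 9 excitatory libraries, with a log2 difference of 0.95 that fell short of 2-fold.

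**Figure D4:**
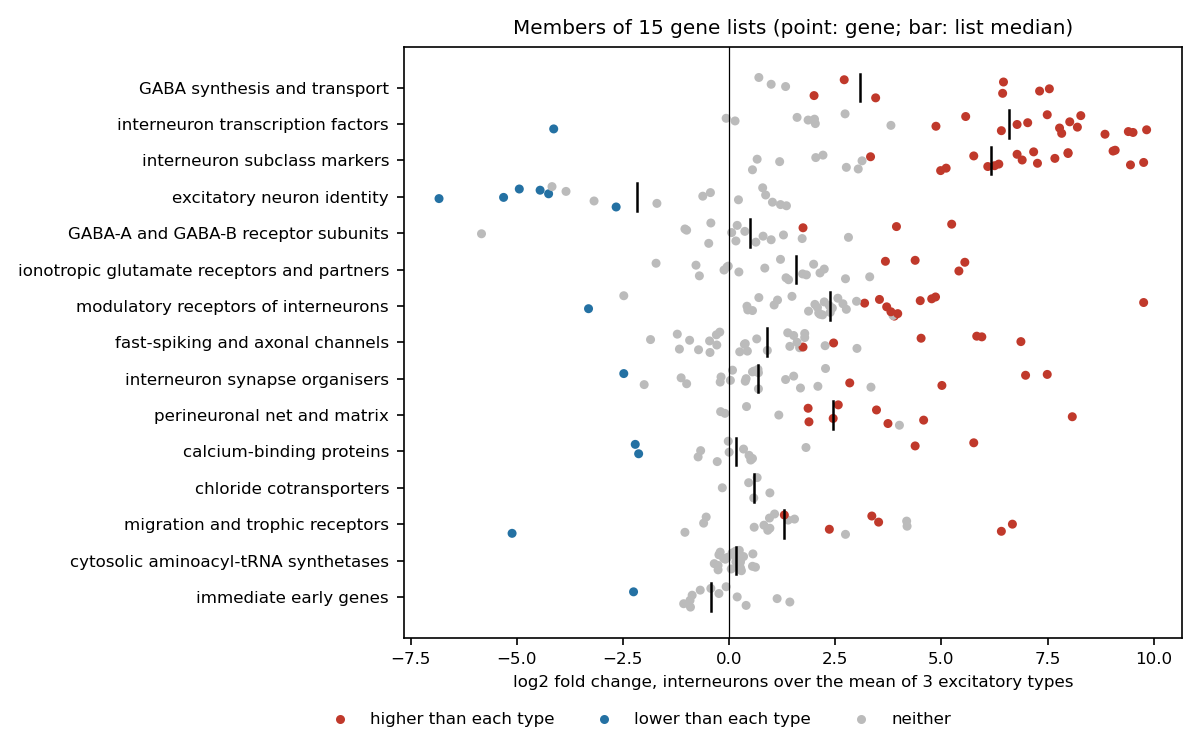
Log2 difference between interneurons and the mean of 3 excitatory types for every tested member of 15 gene lists, with a point per gene (red, higher than in each type; blue, lower than in each type; grey, neither) and a bar at the list median. The medians run from 6.60 for transcription factors to -2.18 for excitatory identity, and the aminoacyl-tRNA synthetases lie close to 0.

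Genes on none of the lists were ranked by their difference from the mean among 347 protein-coding genes higher than in each type, clear of all 9 excitatory libraries and at 10 CPM (counts scaled to library size) or more in interneurons. Where a gene had no counts in cerebellar granule cells, its rank rests on a fitted fold that depends on the prior count. The order of such genes is therefore not an order of measured size. Of the 12 at the top, Pnoc, the precursor of nociceptin, stood at 132, 135 and 125 TPM against at most 1.31 TPM (log2 difference 8.24). The relaxin family receptor Rxfp3 stood at 41.2, 42.5 and 37.4 TPM, and Akr1c18, a steroid dehydrogenase, at 51.0, 53.6 and 57.0 TPM. Neither had counts in the cerebellar granule cell libraries of batch 1, where they were at least 1398-fold and at least 359-fold higher. Krt73, a keratin (at least 959-fold), the cytochrome oxidase subunit Cox6a2 (at least 385-fold), Cntnap3 (at least 610-fold), the Wnt antagonist Sfrp2 (at least 214-fold), Baiap2l2 (at least 279-fold) and Igfbpl1 (at least 170-fold) likewise had no counts there. Their log2 differences from layer V neurons ran from 2.88 for Baiap2l2 to 7.45 for Krt73. The neural progenitor factor Sox1 stood at 52.0, 56.2 and 44.2 TPM in interneurons and at 32.6 TPM in astrocytes. Glp1r, the receptor for glucagon-like peptide 1, stood at 9.97 and 10.7 TPM in replicates 1 and 2 and at 0.896 TPM in replicate 3, and Igfbpl1 at 13.2, 11.5 and 3.27 TPM, so replicate 3 was apart for both.

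The same rule in the other direction took 12 of 113 genes lower than in each type that reached 10 CPM in every excitatory type. Neuritin (Nrn1), a membrane-anchored plasticity protein, came first at 9.87, 12.3 and 11 TPM against 461 to 549, 474 to 495 and 268 to 276 TPM in dentate gyrus granule cells, layer V neurons and cerebellar granule cells (log2 difference -5.36, SE 0.07, adjusted p = 2.1e-15). The transcriptional repressors Bhlhe22 (3.05 to 3.58 TPM, log2 difference -4.63), Prdm8 (3.02 to 3.59 TPM, -4.33) and Zbtb18 (48.1 to 58.7 TPM, -3.78) were also among them. So were the synaptic vesicle protein Sv2b (-4.24), the Nogo receptor Rtn4r (9 to 9.31 TPM, -3.81) and the adenosine receptor Adora1 (20.1 to 22.2 TPM, -3.10). The rest were the adenylate kinase Ak4 (-3.73), Inka2 (-3.68), Ntng2, a netrin-G ligand partner (-3.14), the activin-type receptor Acvr1c (-3.13) and Klf10 (-3.18). Klf10 stands apart from the other 11, since it differed between batches of the same excitatory replicates by log2 -0.70 in dentate gyrus granule cells, -1.07 in layer V neurons and -1.17 in cerebellar granule cells (batch 2 minus batch 1), and a single transcript, Klf10-204, held 99.6% ± 0.125 (SD, n = 3) of its TPM in interneurons.

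Aminoacyl-tRNA synthetases, which charge tRNAs and so bear on the question of the study, were within 2-fold in nearly all comparisons. The 24 genes tested cover cytosolic synthetases, their partners and Fars2, a mitochondrial synthetase. None of the 24 was called against the mean or against each type, by edgeR at an adjusted p of at most 0.05 and 2-fold. Their log2 differences from the mean ran from -0.35 for Farsa to 0.62 for Dars, with a median of 0.15. Against single types, the synthetase complex factor Eef1e1 was higher than in dentate gyrus granule cells (log2 difference 1.03), and Eprs (-1.02) and Vars (-1.01) were lower than in cerebellar granule cells. Differences under 2-fold could still be larger than the spread. Seryl-tRNA synthetase (Sars) stood at 307, 309 and 330 TPM, above all 9 excitatory libraries, with a log2 difference of 0.56 (SE 0.03, adjusted p = 1.0e-09), and alanyl-tRNA synthetase (Aars) was at 119 to 121 TPM, between dentate gyrus granule cells (64.7 ± 4.76 TPM) and cerebellar granule cells (150 ± 5.23 TPM). Dars was at 91.0 to 93.1 TPM, above all 9 libraries as well. By CPM, 4 of the 24 genes lay above all 9, near the 15.2% of all genes tested that did so.

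Immediate early genes, which rise with recent activity, were mostly lower than in layer V neurons. Of 13 genes 9 were lower and none higher than in that type (median log2 difference -1.78), where 12.4% of all genes tested were lower. Among them were Egr1 (log2 difference -2.98), Fosb (-2.64) and Arc (-1.78). Against dentate gyrus granule cells 3 were higher and 3 lower, beside 16.7% and 13.2% of all genes tested. Against cerebellar granule cells 2 were higher and 3 lower, beside 30.1% and 16.1% of all genes tested. Their summed level was 154, 278 and 275 TPM in the 3 interneuron libraries, below the 382 to 767 TPM of the 9 excitatory libraries. None was higher than in each type and 1 was lower, Jun, at 31.9, 29.9 and 29.3 TPM against 281 ± 4.08, 49.9 ± 3.26 and 162 ± 18.2 TPM in the excitatory means (log2 difference -2.25, SE 0.07, adjusted p = 1.3e-11). Against layer V neurons its log2 difference of -1.01 lay at the 2-fold limit, and without interneuron replicate 3 it was no longer called lower than in each type, while its difference from the mean was -2.21 (adjusted p = 3.7e-10). Fos stood at 6.80, 51.9 and 56.7 TPM, so replicate 1 was far below the other two. Its call against the mean (log2 difference 1.13, edgeR adjusted p = 0.033) fell short of 2-fold within batch 2 (0.73). Replicate 1 was also lowest for Egr1 (19.7, 52.5 and 44.3 TPM) and Fosb (1.41, 4.96 and 5.04 TPM), but not for Arc (17.6, 19.5 and 15.7 TPM). Without replicate 1 the log2 difference of Egr1 from the mean was -0.77 in place of -1.07, short of 2-fold.

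Markers of other cells were read to see what else the interneuron libraries held. All 10 oligodendrocyte genes and all 6 genes of oligodendrocyte precursors were higher than in each excitatory type, with medians of 4.65 and 4.13 on the log2 scale. Myelin basic protein (Mbp) stood at 1178, 1213 and 1160 TPM against 160 to 205, 132 to 138 and 60.4 to 71.0 TPM. All 3 interneuron libraries were above all excitatory ones, by a log2 difference of 2.51 for Mbp, and within batch 2 by 2.49. Summed, the oligodendrocyte genes held 3207 to 3446 TPM in interneurons, 302 to 432 TPM in dentate gyrus granule cells, 237 to 249 TPM in layer V neurons, 126 to 153 TPM in cerebellar granule cells, and 1069 to 1307 TPM in the astrocyte libraries. None of the 10 was at 0, and the part of oligodendrocyte RNA in the genes called higher was not tested. The precursor genes summed to 120 to 135 TPM against at most 11.5 TPM in an excitatory library, with Olig1 at 57.9 to 66.4 TPM and Pdgfra at 4.64 to 6.06 TPM.

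Other lists were lower in level. Astrocyte genes summed to 260 to 307 TPM in interneurons, close to the 281 to 295 TPM of layer V neurons and far from the 16195 to 17651 TPM of astrocytes, and none was higher than in each type. Against the mean, 2 of the 10 were called higher, Gfap (log2 difference 1.78) and Aldoc (1.22), beside 18.6% of all genes tested. Microglial genes summed to 38.7 to 43.6 TPM against 25.2 to 29.4 TPM in dentate gyrus granule cells, with Tmem119 and Trem2 under 1 TPM in every interneuron library, and vascular genes to 30.9 to 45.8 TPM, within the 28.3 to 61.1 TPM of dentate gyrus granule cells. Choroid plexus and ependymal genes summed to 179 to 292 TPM, overlapping the 111 to 249 TPM of dentate gyrus granule cells, most of it transthyretin (Ttr, 161 to 271 TPM). None of these 3 lists had a gene higher than in each type. Against the mean, all 7 choroid plexus and ependymal genes and 3 of 10 vascular genes were called higher. Of the 7, none was higher and 1 was lower than in dentate gyrus granule cells, while 6 were higher than in layer V neurons. Within batch 2 their log2 differences from the mean ran from 0.84 for Ccdc153 to 3.74 for Kcne2, with Ttr at 3.32. Of the microglial list 6 genes were called higher than the mean, of which C1qa, C1qb, C1qc, P2ry12, Cx3cr1 and Csf1r were all lost within batch 2. Genes of hippocampal pyramidal cells summed to 260 to 273 TPM, below the 295 to 459 TPM of dentate gyrus granule cells, and none was higher than in each type. Against the mean, 5 of the 8 were called higher, Mpped1 the furthest (141 to 160 TPM, log2 difference 3.69). By type, 7 were higher than in cerebellar granule cells. Against dentate gyrus granule cells 1 was higher and 4 lower, and the same counts held against layer V neurons.

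**Figure D5:**
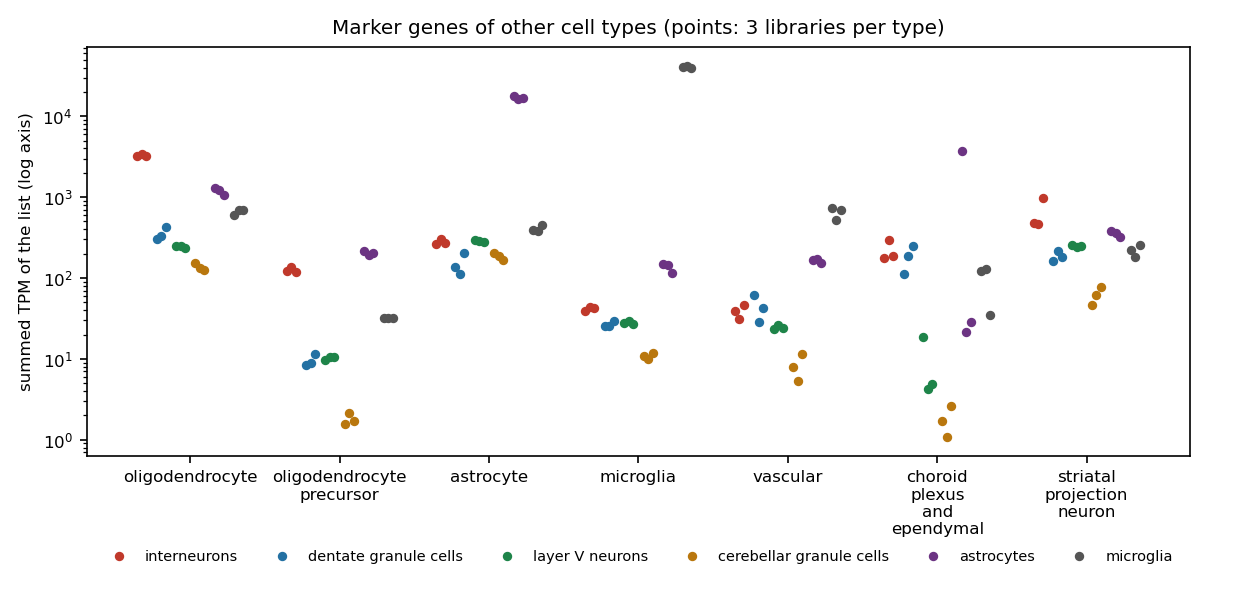
Summed TPM of marker lists of other cell types (log axis), with a point for each of 3 libraries of 6 cell types. Oligodendrocyte and precursor markers in interneurons, at 3207 to 3446 and 120 to 135 TPM, lie above all excitatory libraries, whereas vascular and choroid plexus markers overlap dentate gyrus granule cells.

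The 3 interneuron libraries were alike in most genes, and replicate 3 differed most. Of 9593 genes at 10 CPM or more in at least 1 interneuron library, 11 were at least 2-fold above both others in replicate 3 and 25 at least 2-fold below, against 5 and 5 in replicate 1 and 3 and 3 in replicate 2. Striatal projection neuron genes were among those highest in replicate 3: the adenosine receptor Adora2a stood at 3.08, 2.03 and 21.3 TPM, the phosphatase inhibitor DARPP-32 (Ppp1r1b) at 35.9, 29.2 and 151 TPM, proenkephalin (Penk) at 184, 168 and 429 TPM and the dopamine receptor Drd1 at 5.47, 5.52 and 16.0 TPM. Summed over 10 striatal genes, the interneuron libraries ranged from 461 to 988 TPM and layer V neurons from 243 to 253 TPM. In the list, 3 genes were higher than in each type (Drd2, Tac1 and Penk, which interneurons also use), and 2 without replicate 3. Zic1 and Zic2, factors of cerebellar granule cells and of septal and some other forebrain neurons, went the other way, at 36.4, 29.8 and 2.16 TPM and at 28.9, 21.4 and 1.81 TPM. Replicate 3 is also the library made from males alone, and whether the difference goes with that was not tested. Without replicate 3 the counts were 1153 genes higher and 292 lower than in each type.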

How the data were processed

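Ribosome-bound mRNA was sequenced with a stranded kit. According to the study's methods and the processing notes, adapters were removed by cutadapt 3.5, and kallisto 0.46.2 assigned the reads to GENCODE transcripts of GRCm38. The authors deposited estimated counts and TPM for each transcript. Here estimated counts were summed per gene, rounded to whole numbers and tested with edgeR 4.0.16 (TMM, filterByExpr, quasi-likelihood) under R 4.3.3 over 12 libraries, grouped by their labels. The authors' own test, sleuth, was not run. TPM, summed per gene, gives levels. A call required a Benjamini-Hochberg adjusted p of at most 0.05 over all genes tested and a difference of at least 2-fold, and the 3 pairwise comparisons share the interneuron libraries. The test models counting error, and the floor of 3 counts per library sets only the bounds given for types without counts. A fitted fold against a type at 0 depends on the prior count.

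Gene lists came from general knowledge of these cells, and the groups, lists and members were chosen with earlier results of these data known. Named genes were the 12 per direction ranked by the difference from the mean (10 CPM or more, clear of all excitatory libraries, on no list) and up to 4 list members per direction. Other list members, and the genes that set interneuron replicate 3 apart, were chosen after their values were seen. Mars1 was not matched, and Rcvrn did not pass the filter. Some members count in the lists but are not reported here by name. Dlx6os1 has 2 gene identifiers, of which the one with more counts was used. Alternatives were RLE scaling and DESeq2 1.42.0, limma 3.58.1 on log2(TPM + 1) of the deposited TPM, other filters, other library sets, batch, male share and replicate terms and leaving out each library. On simulated counts for the 18587 genes of the comparison with the mean, 200 of 200 changed genes were recovered with 3 false calls. The changed genes were drawn from the better counted ones, with median fitted log2 differences of 2.01 and -2.01. All other genes were set level between types. Recovery of differences near 2-fold, or of genes with few counts, was not tested. Python 3.11.15, numpy 2.4.6, pandas 2.3.3 and matplotlib 3.10.9 were used for tables and figures.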

Additional observations from a re-analysis of the deposited data

How the results depend on the processing

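The counts against the mean (3450 higher, 1292 lower) and against each type (1128 higher, 278 lower) stayed within 1.5 times under RLE scaling, DESeq2, no filter on low counts, all 18 replicates in 1 fit, the batch 2 libraries of the resequenced replicates, batch as a term, male share as a covariate and batch 2 alone. Batch 2 alone gave 1040 genes higher and 247 lower than each type, of which 962 and 230 were shared, but it has 1 library per excitatory type, assumed to vary like the interneurons. A minimum of 10 CPM in 3 libraries left 1421 higher and 634 lower than the mean and 461 and 159 against each type, with fewer genes tested. Limma on log2(TPM + 1) gave 1920 and 662 against the mean and 113 lower than each type, and the cause was not tested. Without a minimum fold the counts were 7330, 5763, 2534 and 1645. Leaving out 1 library at a time gave 3421 to 3652, 1264 to 1338, 1107 to 1184 and 269 to 298. With a replicate block the counts were 3445, 1284, 1121 and 276, and same-numbered libraries deviated together at r = -0.0549 to 0.122 over 18 pairs, so the numbers do not pair the samples. Of 9231 values of 404 named genes under the alternatives, 9014 kept direction and call, 36 changed sign without a call under either setting, 129 lost the call, 49 gained it and 3 reversed. The 3 were all by limma, against the mean: Emx2 (1.02 by edgeR, -0.59 by limma, adjusted p = 7.7e-05), Fezf2 (0.22 and -2.01, adjusted p = 5.3e-09) and Dsp (0.99 and -1.34, adjusted p = 3.1e-08), and the cause was not tested. Depth limits genes near 0 in a type, whose fold is a bound.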

Other observations

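The transcripts behind the 4 defining genes were unequal in number. Of the Gad2 level in interneurons, 96.1% ± 0.538 (SD, n = 3) was the protein-coding transcript Gad2-201. For Gad1, 58.9% ± 2.07 was the protein-coding Gad1-201 and 37.3% ± 2.28 was Gad1-206, which the annotation holds as a processed transcript without a coding frame, at 692, 823 and 755 TPM. Dlx5-201 made up 94% ± 1.03 of Dlx5. Dlx6 was split over coding transcripts, with 58.7% ± 4.22 from Dlx6-203, 27.3% ± 0.154 from Dlx6-202 and 10.4% ± 3.07 from Dlx6-201. Shares of overlapping transcripts are estimates of the quantification.

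Gad1 and Gad2 were also read in the glia of the same series. Gad1 stood at 47.4 ± 7.58 TPM in astrocytes and 16.4 ± 1.10 TPM in microglia, and Gad2 at 13.7 ± 2.15 and 4.03 ± 0.423 TPM (SD, n = 3). The interneuron means were 2029 ± 52.9 and 570 ± 29.0 TPM. Cxcl14, a chemokine of some interneurons, stood at 711 TPM in astrocytes, above its 282 to 303 TPM in interneurons. These glial values were not part of a test.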
